A study of Homo sapiens with 21 samples.

Results

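Mitochondrial ribosomal protein genes were followed in HepG2/C3A, a clonal derivative of the human hepatoma line HepG2, as the cells were taken out of flat culture and kept as spheroids. The group was defined by gene symbol alone, MRPL or MRPS followed by a number, and held 78 of the 19683 gene symbols in the count table: 49 of the large subunit (MRPL) and 29 of the small subunit (MRPS). Their genes are spread over 21 chromosomes (GENCODE 29, GRCh38), with no more than 8 on any one. Spheroids were sampled on Days 3, 7, 10, 14, 21 and 28 and set against a 2D monolayer, with 3 libraries in each of the 7 groups. All cells carried the wild-type genotype by their labels and were grown in MEM with serum. Spheroids formed in low-attachment plates before their transfer to a rotating reactor, so shape, vessel and time in culture differ together between spheroids and monolayer and cannot be told apart. The monolayer was sampled once, with no flat culture of matching age for the later days.

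Mitochondria carry their own ribosome, which makes the core membrane subunits of the respiratory chain encoded by mitochondrial DNA. Its protein subunits are all encoded in the nucleus, made in the cytosol and imported. The large subunit forms peptide bonds and feeds the new chain into the inner membrane through its exit tunnel, while the small subunit holds the messenger RNA and reads its codons. Some subunits descend from bacterial ribosomal proteins and others were added in the mitochondrial lineage. Liver cells are rich in mitochondria, and their ATP supply rests on the respiratory chain that this ribosome helps to build.

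Expression was measured by TempO-Seq, which ligates pairs of detector oligos on a target RNA and counts the ligated products by sequencing. The median library held 31997292 counts, and the range was 18760232 to 43443262. Levels are given as CPM, counts scaled to a common library size, here on TMM-scaled library sizes. They depend on the probe of each gene, so they compare libraries for a gene and not genes with each other. Of the 78 members, 77 had enough counts to be tested among 12345 genes, 49 large and 28 small, and MRPS24 was left out with 21 counts in all libraries together. The hepatocyte markers checked, ALB among them, summed to 47549 to 48585 CPM at Day 3 and to 10234 to 11058 CPM in 2D. COL1A1, DCN, KDR and PTPRC, markers of fibroblasts, endothelium and leukocytes, were at 0 in all libraries. In bulk RNA, a change in the number of cells of one kind and a change in RNA per cell cannot be told apart.

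Most mitochondrial ribosomal protein genes were higher in young spheroids than in monolayer. Their summed share of all counts was 1.03% to 1.04% in the 3 Day 3 libraries and 0.591% to 0.597% in the 3 monolayer libraries. In the edgeR quasi-likelihood test with Benjamini-Hochberg adjustment over all genes, called at an adjusted p under 0.05, 57 of 77 members were higher at Day 3 and 15 were lower. With library-size scaling in place of TMM the split was 60 higher and 7 lower. The background was high, since 40.1% of all genes tested were called higher and 37.8% lower in this comparison. The members' median log2 fold change was 0.63, against 0.06 over all genes. By the values themselves, 57 members had all 3 Day 3 libraries above all 3 monolayer libraries and 13 had all below, and 7 overlapped, where 80.9% of all genes tested were separated in either direction.

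**Figure D1:**
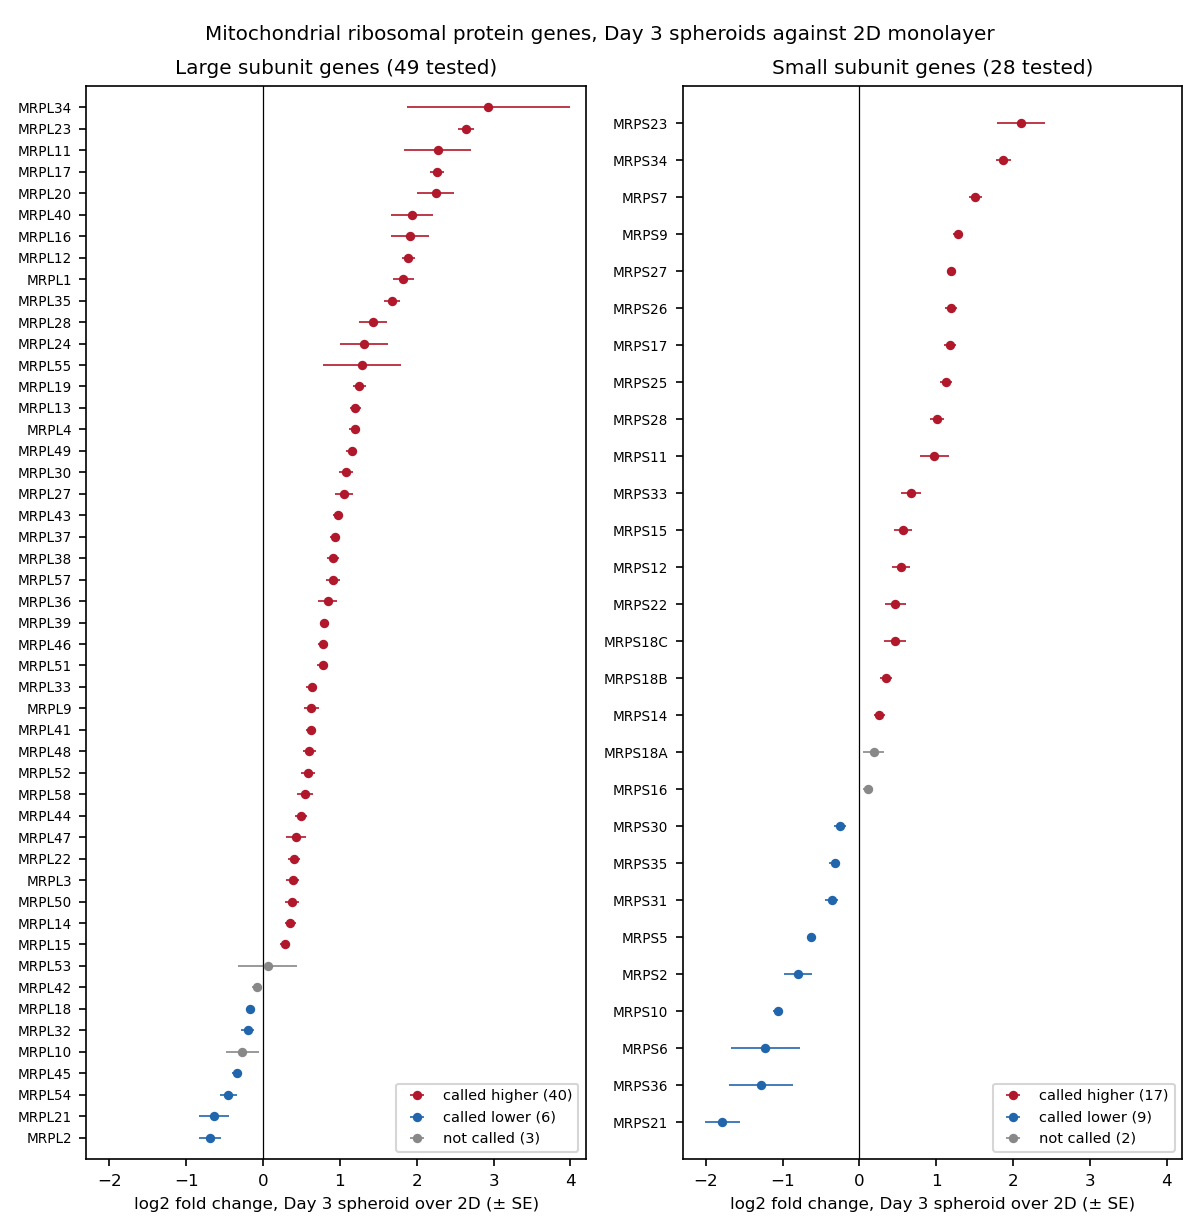
Log2 fold change of Day 3 spheroids over 2D monolayer for each tested gene, large subunit left and small subunit right, with bars of 1 SE from the edgeR fit on 3 libraries a group; red and blue points passed an adjusted p under 0.05. The large subunit had 40 genes called higher and 6 lower, and the small subunit 17 and 9. MRPL34 rests on 105 counts in all libraries together.

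In the large subunit, the steepest rise at Day 3 among genes that averaged 10 CPM or more over the 6 libraries compared was in MRPL23, which sits at the mouth of the exit tunnel. The gene spans chr11:1947278-1984522 on the plus strand of GRCh38. It measured 494, 482 and 460.3 CPM at Day 3, against 74.1, 80.0 and 75.2 CPM in 2D. Every spheroid value was several times every monolayer value, and the log2 fold change was 2.65 ± 0.10 (SE, n = 3 each, edgeR adjusted p = 4.47e-17). MRPL17, another protein of the tunnel exit region, encoded at chr11:6680782-6683401 on the minus strand, stood at 192, 192 and 199.7 CPM at Day 3, against 40.2, 39.6 and 41.8 CPM in 2D (log2 fold change 2.26 ± 0.10). MRPL12, the stalk protein that recruits translation factors and also binds the mitochondrial RNA polymerase, had 369.6, 372 and 352 CPM at Day 3, against 93.5, 103.6 and 97.7 CPM in 2D (log2 fold change 1.89 ± 0.08). MRPL35, a homologue of a bacterial core protein, was the next above that level, with a log2 fold change of 1.68 ± 0.11. MRPL1, just under it with means of 14.8 CPM at Day 3 and 4.14 CPM in 2D, had a log2 fold change of 1.83 ± 0.14. Members further under that level with larger rises included MRPL20 (2.25 ± 0.24), MRPL40 (1.94 ± 0.27) and MRPL16 (1.91 ± 0.25).

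The large subunit is described here by its parts, with no test between them. Among proteins around the exit tunnel, 7 of 8 were higher and 1 was lower, with a median log2 fold change of 0.65. The lower one was MRPL45, which anchors the ribosome at the inner membrane, with 118, 119 and 121.8 CPM at Day 3 against 144, 148.7 and 161 CPM in 2D. Its log2 fold change of -0.34 ± 0.07 was called at an edgeR adjusted p of 2.59e-05, but not with libraries scaled by size alone (edgeR adjusted p = 0.078). In the central protuberance, the crown that faces the small subunit, 8 of 9 were higher and MRPL18 was lower, with a median of 0.78. MRPL58, a peptidyl-tRNA hydrolase in that region that frees stalled ribosomes, had a log2 fold change of 0.55 ± 0.10. In the stalk and its base, 2 of 5 were higher, the same share as among all genes (40.1%), 1 was lower and the median was 0.06. There MRPL12 and MRPL11 were higher, MRPL54 was lower with a log2 fold change of -0.45 ± 0.11, and MRPL10, the anchor of the stalk, was not called (-0.27 ± 0.22). Library-size scaling ended the call of MRPL54 (edgeR adjusted p = 0.0566) and turned the sign of MRPL18 (log2 fold change -0.17 as fitted, 0.05 with that scaling). MRPL2, a protein of the catalytic core, had 9.39, 7.23 and 9.28 CPM at Day 3 against 11.6, 14.6 and 15.6 CPM in 2D, a log2 fold change of -0.69 ± 0.14. Large-subunit proteins with a bacterial homologue had a median of 1.14 (25 of 30 higher, 4 lower), and those specific to mitochondria a median of 0.62 (15 of 19 higher, 2 lower).

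The small subunit was divided. MRPS34, a mitochondria-specific protein of the small subunit encoded at chr16:1771890-1773155 on the minus strand, had 286, 296 and 319 CPM at Day 3, against 81.7, 81.9 and 81.6 CPM in 2D (log2 fold change 1.88 ± 0.10, edgeR adjusted p = 1.51e-15). MRPS7, which binds the ribosomal RNA in the head of the subunit, had a log2 fold change of 1.51 ± 0.08, and MRPS9, another head protein, of 1.28 ± 0.06. MRPS27, a pentatricopeptide-repeat protein, had a log2 fold change of 1.20 ± 0.06.

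MRPS10, a head protein of bacterial origin encoded at chr6:42206801-42217865 on the minus strand, went the other way. It had 224, 231 and 200.3 CPM at Day 3, against 428, 479.6 and 458 CPM in 2D, so the highest spheroid library lay far under the lowest monolayer library (log2 fold change -1.06 ± 0.06, edgeR adjusted p = 2.7e-16). MRPS5, which lies near the entry of the messenger RNA, had 629, 628 and 629 CPM at Day 3, against 1026, 915.5 and 970.2 CPM in 2D (log2 fold change -0.63 ± 0.06). MRPS2 had a log2 fold change of -0.80 ± 0.18 at a lower level, 8.90, 8.75 and 9.64 CPM at Day 3 and 13.9, 16.3 and 17.2 CPM in 2D. MRPS31 was lower by a smaller amount, -0.36 ± 0.09, which library-size scaling took out of the calls (edgeR adjusted p = 0.137). Small-subunit proteins specific to mitochondria were higher in 8 of 10 and lower in 2, with a median of 0.90, and those with a bacterial homologue were higher in 9 of 15 and lower in 5, with a median of 0.46.

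Promoters are shown for the member with the largest rise and the largest fall in each subunit at Day 3 against 2D. The choice was among called members that averaged 10 CPM or more over the 6 libraries compared, with no overlap between the groups. Under that level, MRPS23 (2.11 ± 0.31) rose more than MRPS34, and MRPS21 (-1.78 ± 0.23) fell more than MRPS10. These promoters set genes of one machine with measured changes in opposite directions side by side. RefSeq entries for MRPL23 and MRPL2 were not in the table used, and MRPL17 and MRPL54 stand in their place. The fall of MRPL54 was not called with library-size scaling (edgeR adjusted p = 0.0566). MRPS10 has 2 named pseudogenes, so its own value is uncertain. Sequences are from RefSeq on GRCh38.p14 and run from 250 bases before the annotated start to the first 30 bases after it, on the strand of the gene. They lie at chr11:6683311-6683590 on the minus strand (MRPL17), chr19:3762432-3762711 on the plus strand (MRPL54), chr16:1773105-1773384 on the minus strand (MRPS34) and chr6:42217832-42218111 on the minus strand (MRPS10). Capitals mark any match, on either strand, to the cores bound by ETS factors such as GABP (CCGGAAGT), by NRF1 (GCGCA and GCGC with 1 base between them) and by YY1 (AAGATGGCG), and to the E-box CACGTG.
MRPL17: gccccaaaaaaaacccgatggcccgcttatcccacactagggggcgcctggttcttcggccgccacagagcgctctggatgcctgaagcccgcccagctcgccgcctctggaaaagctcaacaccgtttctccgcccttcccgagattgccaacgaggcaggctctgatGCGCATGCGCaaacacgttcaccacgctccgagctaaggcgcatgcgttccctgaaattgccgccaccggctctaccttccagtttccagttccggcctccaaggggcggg
MRPL54: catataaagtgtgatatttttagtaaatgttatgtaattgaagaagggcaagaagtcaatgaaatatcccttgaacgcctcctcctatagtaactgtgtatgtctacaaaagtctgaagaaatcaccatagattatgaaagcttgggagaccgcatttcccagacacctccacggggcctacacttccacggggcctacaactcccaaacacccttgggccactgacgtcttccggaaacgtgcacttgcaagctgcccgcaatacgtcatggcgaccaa
MRPS34: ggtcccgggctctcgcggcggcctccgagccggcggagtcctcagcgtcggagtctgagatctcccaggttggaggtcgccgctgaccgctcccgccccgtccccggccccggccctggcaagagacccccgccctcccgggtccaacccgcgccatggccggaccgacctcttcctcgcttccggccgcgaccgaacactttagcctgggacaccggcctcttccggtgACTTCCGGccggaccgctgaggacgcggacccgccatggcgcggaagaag
MRPS10: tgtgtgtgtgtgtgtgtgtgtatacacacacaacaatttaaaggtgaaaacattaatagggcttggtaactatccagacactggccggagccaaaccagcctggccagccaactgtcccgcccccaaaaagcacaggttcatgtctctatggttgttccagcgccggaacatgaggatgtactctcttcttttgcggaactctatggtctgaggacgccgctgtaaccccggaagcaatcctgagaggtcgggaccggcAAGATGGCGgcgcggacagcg
MRPL17 held an NRF1 core whose first base lies 81 bases before the start. MRPS34 held an ETS core 20 bases before it, MRPS10 held a YY1 core 9 bases after it, and MRPL54 held none of the 4 motifs. Over the 300-base promoters of the 69 members with an entry, 15.9% held the ETS core, against 6.19% of the promoters of 15843 protein-coding genes. The YY1 core was in 18.8% of member promoters and 2.74% of all, the NRF1 core in 11.6% and 8.58%, and the E-box in 8.7% and 8.88%. The ETS core was in 9 of 42 large-subunit and in 2 of 27 small-subunit promoters. It was in 10 of 52 promoters of members called higher at Day 3 and in 0 of 12 of members called lower, while the YY1 core was in 7 of 52 and 3 of 12. A match is a description of letters and not a site of binding, which was not measured.

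Several members gave values with little weight. MRPL34 had 13, 11 and 11 counts in the Day 3 libraries and 3, 1 and 0 in 2D, so its fitted fold change carries no interpretable size. MRPS24 had 2, 0 and 1 counts at Day 3 and 0 in each monolayer library. The table has a separate row for the readthrough transcript URGCP-MRPS24, which on GRCh38 (GENCODE 29) covers chr7:43866558-43906589 on the minus strand and includes MRPS24 at chr7:43866558-43869893. That row had 63.9, 60.4 and 63.3 CPM at Day 3, against 203.6, 187 and 182 CPM in 2D. MRPS6 was spread widely, with 21.2, 22.9 and 55.1 CPM at Day 3 and 118, 59.5 and 53.5 CPM in 2D, and the cultures overlapped. MRPS6 lies at chr21:34073224-34143034 on the plus strand and encloses SLC5A3, a transporter gene at chr21:34073570-34106262, which had a log2 fold change of -1.36 ± 0.18.

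Many members have a named pseudogene or share their place with another gene. In GENCODE 29, 34 of the 78 members have a pseudogene named after them and 13 overlap another protein-coding gene on the same strand, 41 having either. The sources used here do not say how the probes were placed against these copies, and their part in the result was not tested. Among the 37 tested members with neither, 31 were higher at Day 3 and 5 were lower, with a median log2 fold change of 1.05. Among the 40 with such a copy or overlap, 26 were higher and 10 were lower, with a median of 0.52. MRPS10, MRPS5, MRPS31, MRPS6, MRPS21 and MRPL2 are among the 10, and MRPL12, MRPL35, MRPL49 and MRPS17 are among the 26. The value of each of these genes alone is uncertain, whichever way it moved. MRPS2 and MRPL54 fell with no named copy.

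The large subunit had the higher median of the 2 at Day 3, with a log2 fold change of 0.80 (40 of 49 higher, 6 lower, or 41 and 2 with library-size scaling) in the large and 0.47 (17 of 28 higher, 9 lower, or 19 and 5 with library-size scaling) in the small subunit. No test was run on this difference, since the members were chosen as a group. It depended on which genes were counted. MRPS18A and MRPS30 carry small-subunit symbols but sit in the large subunit, and MRPS36 is a component of the 2-oxoglutarate dehydrogenase complex. With these placed by structure, the difference of the medians was 0.24 in place of 0.33. Over the members with no named copy or overlap the order turned, with a median of 0.97 in 25 large-subunit genes (21 higher, 3 lower) and of 1.16 in 12 small-subunit genes (10 higher, 2 lower). The 7 lower genes of the small subunit with such a copy or overlap stood beside 7 higher ones, with a median of 0.15 in 16 genes.

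Summed over all members of a subunit, large-subunit CPM were 6405 to 6455 at Day 3 and 3657 to 3776 in 2D. Small-subunit CPM were 3430 to 3553 at Day 3 and 2850 to 2981 in 2D, so both sums were separated between the cultures. The ratio of the 2 sums was 1.84 ± 0.038 (SD, n = 3) at Day 3 and 1.27 ± 0.015 in 2D, and fell to 1.66 ± 0.041 at Day 28. It is a ratio of probe counts and not a stoichiometry. MRPL4, a protein of the tunnel wall, and MRPS5 had the highest counts of their subunits, 23.3% and 22.9% of the subunit's CPM. MRPL4 had 1360.5, 1306 and 1336 CPM at Day 3, against 616, 560.5 and 571 CPM in 2D, while MRPS5 moved the other way. Without these 2 genes the ratio was 1.78 ± 0.039 at Day 3 and 1.61 ± 0.0053 in 2D. At Day 28 it was then 1.57 ± 0.0049, under all 3 monolayer libraries, whereas with them Day 28 lay above. With DAP3, PTCD3, CHCHD1, AURKAIP1 and GADD45GIP1 added, subunits that carry no MRP symbol, the ratio was 1.24 ± 0.017 at Day 3, 1.27 ± 0.036 at Day 28 and 0.875 ± 0.0062 in 2D.

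**Figure D2:**
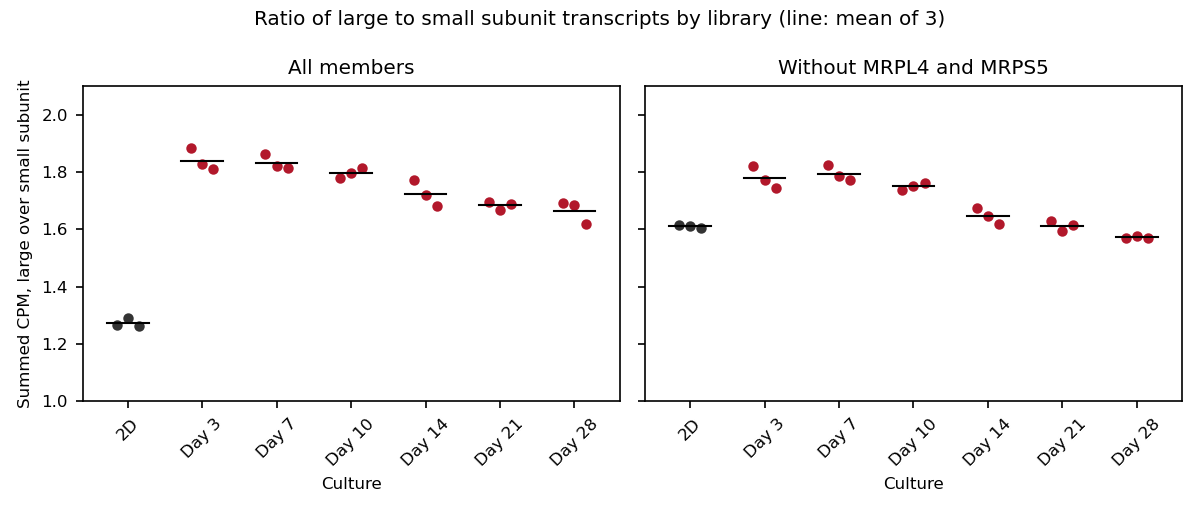
Summed CPM of large-subunit genes over summed CPM of small-subunit genes in each library, with lines at the mean of 3; left, all members, right, without MRPL4 and MRPS5, and the axis starts at 1. With all members every spheroid library lies above the monolayer; without the 2 genes the Day 28 libraries lie below it.

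Across the month in culture the rise was kept in part. Against the same 3 monolayer libraries, 47 members were higher and 14 lower at Day 7, 50 and 11 at Day 10, 49 and 11 at Day 14, 51 and 11 at Day 21, and 45 and 14 at Day 28. The background of genes called higher was 40.4%, 40.0%, 38.7%, 39.3% and 38.5% on these days, and of genes called lower 38.4%, 37.9%, 35.7%, 35.1% and 34.8%. Called either way were 78.7% at Day 7, 74.3% at Day 21 and 73.4% at Day 28, with Days 10 and 14 in between. These comparisons share the monolayer libraries. The share of all counts in members was 0.884% to 0.897% at Day 7, 0.949% to 1.03% at Day 10, 0.894% to 0.949% at Day 14, 0.843% to 0.889% at Day 21 and 0.830% to 0.889% at Day 28, each above the monolayer. In an F test for any change among the 6 spheroid days, 64 of 77 members changed (42 of 49 large, 22 of 28 small), where 76.2% of all genes did.

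**Figure D3:**
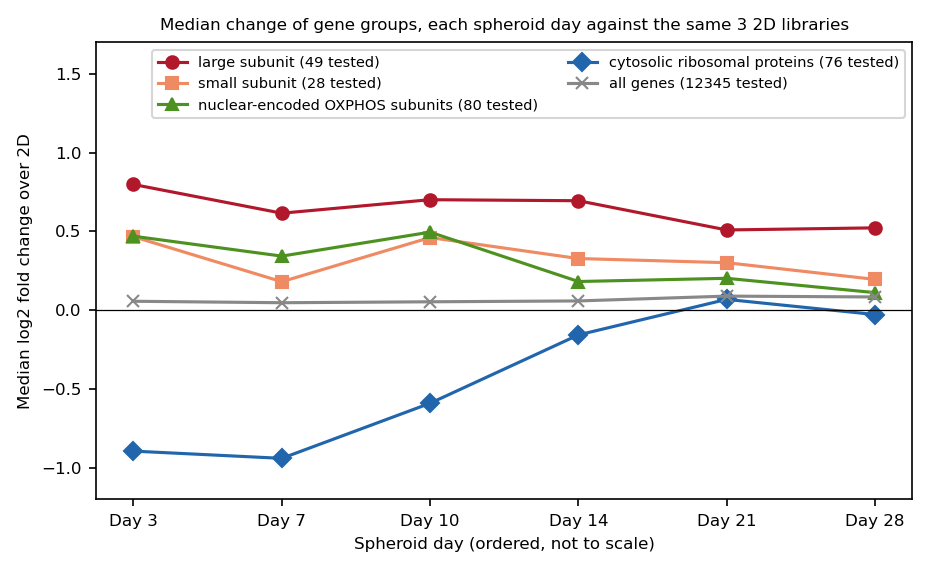
Median log2 fold change over 2D on each spheroid day for the large and small subunits, nuclear-encoded subunits of oxidative phosphorylation (OXPHOS), cytosolic ribosomal proteins and all genes tested; days are in order but not to scale, and all days share the same 3 monolayer libraries. The large subunit starts at 0.80 and ends at 0.52, the small at 0.47 and 0.20, and cytosolic ribosomal proteins at -0.90 and -0.03 (0.19 with library-size scaling).

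Day by day, the members went down, up and down again. From Day 3 to Day 7, 25 members were lower and none were higher at Day 7, with a median log2 fold change of -0.20 (background 8.76% lower, 10.6% higher). MRPL58 was the lowest of the called genes there (-0.64 ± 0.10), and MRPL12 followed the same direction (-0.45 ± 0.08). At Day 10 against Day 7 the calls were all upward, 28 higher and 0 lower, with a median of 0.20 (background 13.9% higher, 13.5% lower). MRPL17 had 278.5, 297 and 226 CPM at Day 10, against 176, 159.5 and 167 CPM at Day 7 (log2 fold change 0.67 ± 0.09), and its Day 10 libraries were the highest of all 21. At Day 21 against Day 14, 9 were higher and 14 lower (background 13.9% higher, 12.7% lower), and at Day 28 against Day 21, 2 were higher and 11 lower (background 10.0% higher, 14.0% lower). Of the large-subunit genes 22 had their highest spheroid mean at Day 3 and 11 at Day 10, and 24 had their lowest at Day 28. Of the 28 small-subunit genes, 9 peaked at Day 3 and 9 at Day 10, while 10 were lowest at Day 7, 7 at Day 21 and 6 at Day 28.

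**Figure D4:**
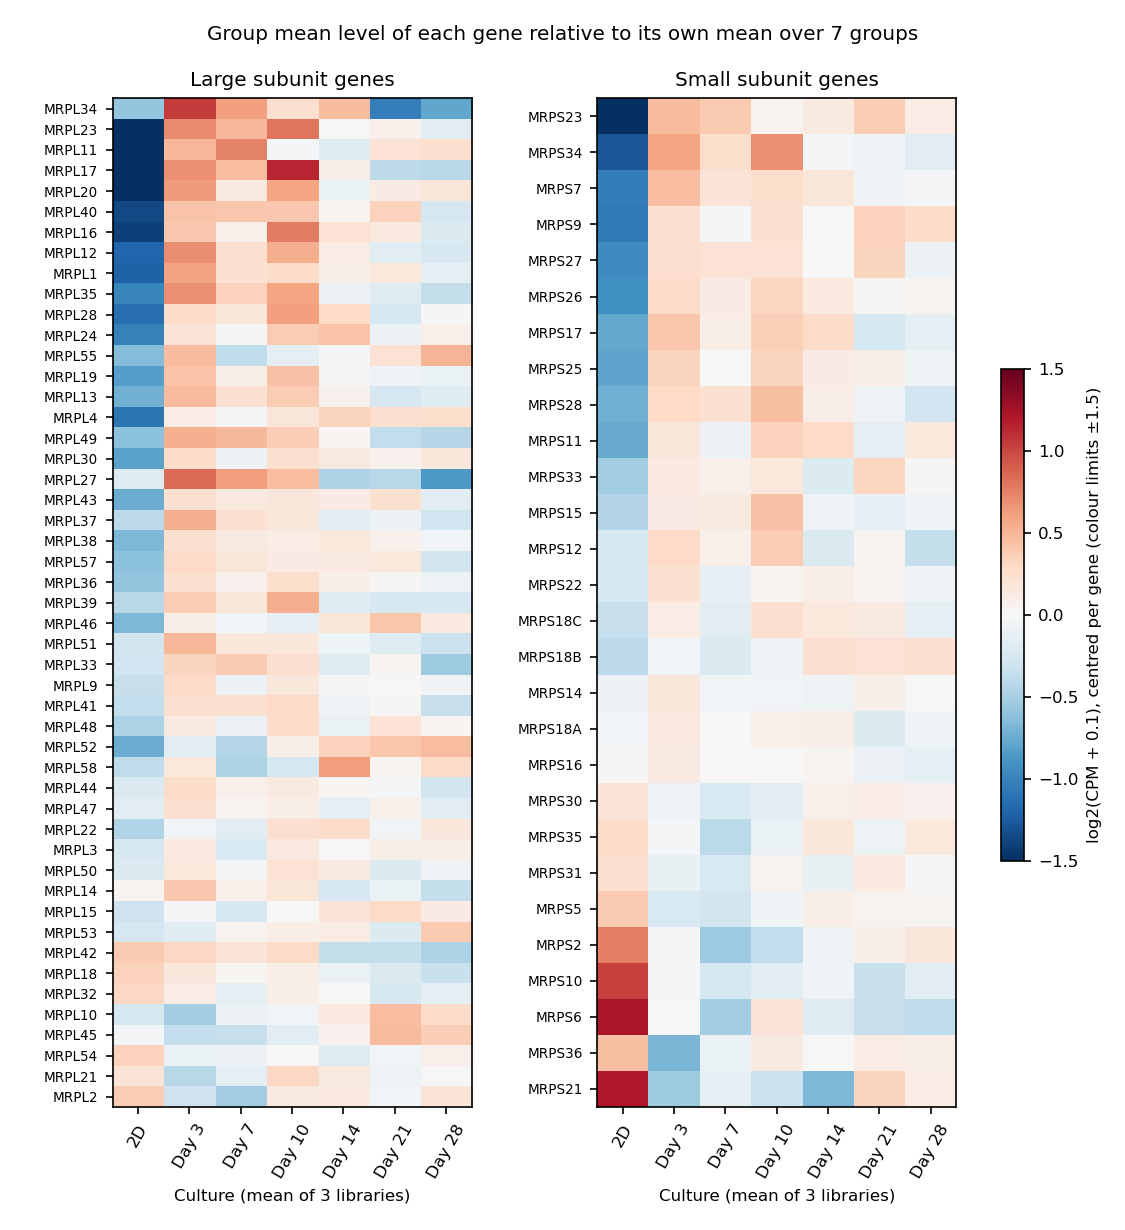
Mean CPM of 3 libraries for each tested gene, as log2(CPM + 0.1) relative to the gene's own mean over the 7 groups, with the genes of each subunit ordered by their Day 3 fold change; colours are clipped at ±1.5. Most rows are blue in 2D and red at Days 3 and 10, and the bottom rows of the small subunit, MRPS10, MRPS2 and MRPS21 among them, are red in 2D.

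Between neighbouring spheroid days, the step between Days 10 and 14 had the most members called, and also the most genes of all kinds, 48.3% of those tested in either direction. At Day 14, 27 of 77 members were lower and 9 higher than at Day 10, with a median log2 fold change of -0.16 (background 24.3% lower, 24.0% higher). The large subunit had 19 lower and 5 higher with a median of -0.19, and the small subunit 8 lower and 4 higher with a median of -0.09. MRPL17 was down most, with 135, 136 and 116 CPM at Day 14 against the Day 10 values above (log2 fold change -1.05 ± 0.09, edgeR adjusted p = 1.14e-10). MRPL27, a homologue of the bacterial protein at the peptidyl transferase centre, had 10.1, 10.1 and 8.01 CPM at Day 14, against 18.5, 18.9 and 16.5 CPM at Day 10 (-0.93 ± 0.12). MRPL23 (-0.79 ± 0.10) and MRPL39 (-0.74 ± 0.06), both at the tunnel exit, were also lower. In the small subunit MRPS34 (-0.71 ± 0.09), MRPS12, a protein of the decoding centre (-0.60 ± 0.12), MRPS15 (-0.51 ± 0.12) and MRPS33 (-0.37 ± 0.13) were lower. The call of MRPS33 was lost without Day 10 replicate 1, Day 14 replicate 1 or Day 14 replicate 2 (edgeR adjusted p = 0.125, 0.0573 and 0.0621).

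MRPL58 had the largest rise of the 9 members called higher at that step. It had 65.4, 69.2 and 72.6 CPM at Day 14, against 38.1, 37.4 and 36.3 CPM at Day 10, its highest group of all (log2 fold change 0.89 ± 0.10, edgeR adjusted p = 1.08e-08). MRPL46, its neighbour in the central protuberance, had a log2 fold change of 0.31 ± 0.06, and MRPL45 of 0.24 ± 0.07. MRPS18B, a small-subunit relative of a bacterial protein, had 87.0, 85.5 and 87.0 CPM at Day 14, against 67.1, 66.1 and 74.4 CPM at Day 10 (0.32 ± 0.07), and MRPS35 was higher by 0.27 ± 0.07. The calls of MRPL52 (0.26 ± 0.09), MRPS30 (0.24 ± 0.08) and MRPS5 (0.16 ± 0.06) did not hold under all settings. MRPL52 was lost without Day 10 replicate 3 or Day 14 replicate 2 (edgeR adjusted p = 0.0729 and 0.0664), and MRPS30 without Day 10 replicate 2 (0.0738). MRPS5 was lost without Day 10 replicate 1 or 3 or Day 14 replicate 1 or 2 (edgeR adjusted p = 0.0686, 0.229, 0.0508 and 0.0988). With all libraries kept, MRPS5 was also lost under RLE scaling (edgeR adjusted p = 0.0625) and in a fit on the 2 groups compared (0.0595).

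**Figure D5:**
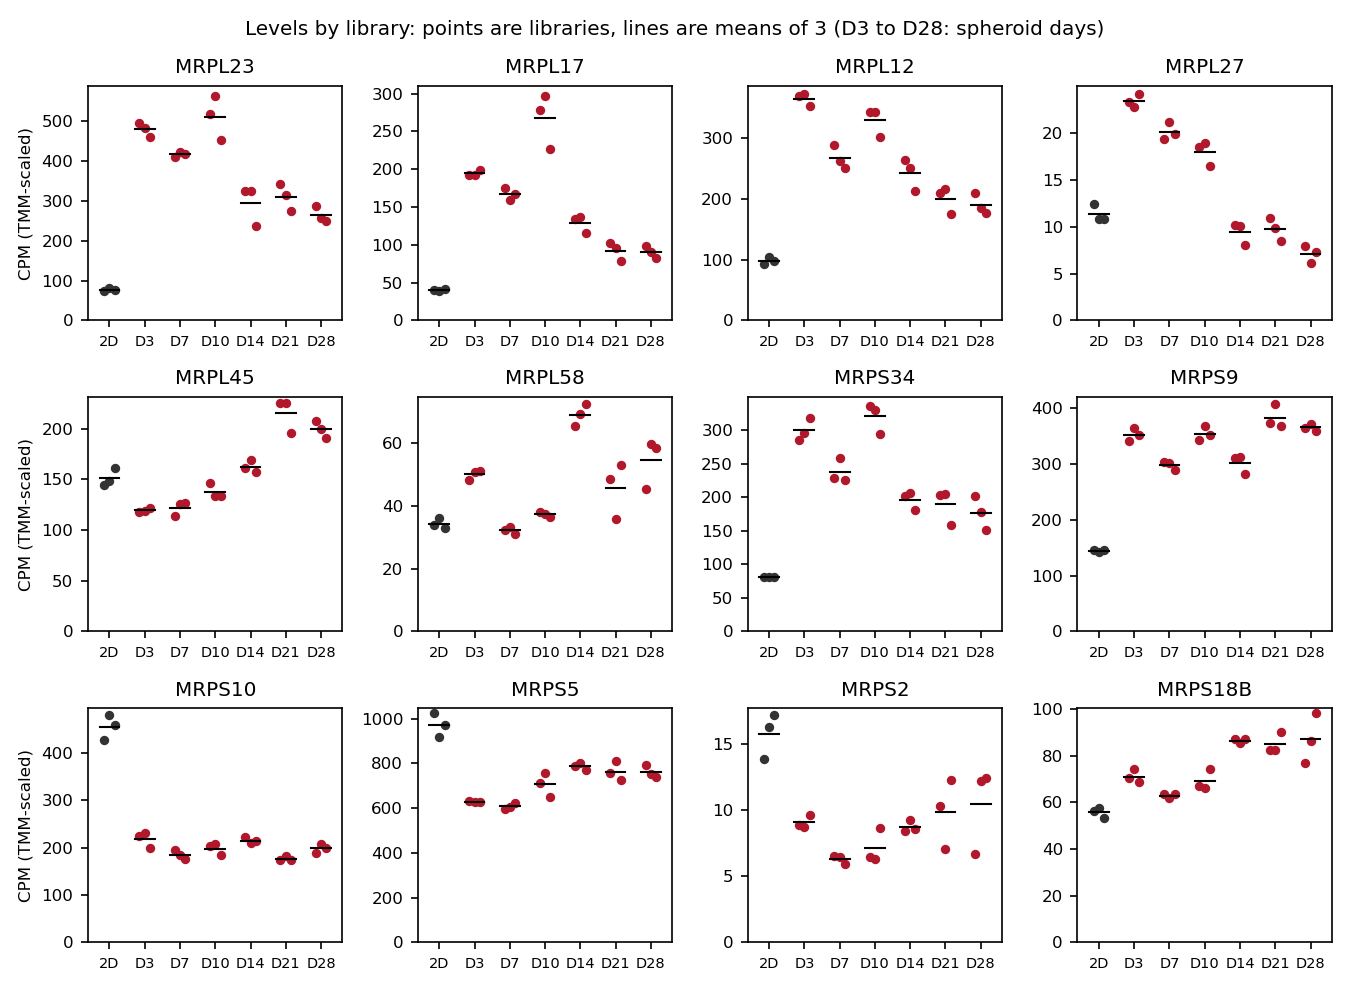
CPM of 12 members in each of the 21 libraries (points) with group means (lines), 2D in black and spheroid Days 3 to 28 in red; each panel has its own axis from 0. MRPL17 and MRPL27 fall between Days 10 and 14, MRPL58 peaks at Day 14, MRPL45 is highest at Days 21 and 28, and MRPS10 and MRPS5 stay below the monolayer throughout.

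Old spheroids had less of most members than young ones. At Day 28, 39 members were lower and 10 higher than at Day 3, with a median log2 fold change of -0.28 (background 30.2% lower, 29.5% higher, 59.6% either way). The large subunit had 29 of 49 lower and 6 higher with a median of -0.38, and the small subunit 10 of 28 lower and 4 higher with a median of -0.21. Among members that averaged 10 CPM or more over the libraries compared, MRPL27 changed most. It had 7.90, 6.11 and 7.26 CPM at Day 28 against 23.3, 22.8 and 24.1 CPM at Day 3 (log2 fold change -1.73 ± 0.13, edgeR adjusted p = 1.06e-13). MRPL17 (-1.10 ± 0.09), MRPL35 (-1.05 ± 0.10) and MRPL49 (-0.96 ± 0.07) followed it in the large subunit. MRPS34 (-0.77 ± 0.09), MRPS12 (-0.67 ± 0.12), MRPS28 (-0.59 ± 0.09) and MRPS17 (-0.55 ± 0.07) led the falls in the small subunit.

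A smaller set was higher at Day 28 than at Day 3. MRPL45 had 208, 199.9 and 191 CPM at Day 28, against 118, 119 and 121.8 CPM at Day 3, with no overlap (log2 fold change 0.74 ± 0.07, edgeR adjusted p = 1.97e-11). It was thus below the monolayer at Day 3 and above it at Day 28 (0.40 ± 0.07). MRPL52 (0.62 ± 0.09), MRPL2 (0.49 ± 0.14) and MRPL22 (0.22 ± 0.08) rose in the large subunit. MRPS18B (0.30 ± 0.07), MRPS5 (0.27 ± 0.06) and MRPS35 (0.19 ± 0.07) rose in the small subunit. MRPL22 lost its call without Day 28 replicate 2 (edgeR adjusted p = 0.051), and MRPS35 without Day 3 replicate 3 (0.0535).

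Set against the monolayer, Day 28 spheroids still had 45 members higher and 14 lower (background 38.5% higher, 34.8% lower). Their median log2 fold change was 0.43, against 0.08 over all genes. The large subunit had 32 of 49 higher and 7 lower with a median of 0.52, and the small subunit 13 of 28 higher and 7 lower (16 and 4 with library-size scaling) with a median of 0.20. Over members with no named copy or overlap the order turned here too, with medians of 0.56 in the large and 0.79 in the small subunit. The difference of the medians, 0.33 over all members, was 0.13 with genes placed by structure and 0.11 over members of at least 10 CPM. MRPL23 had 286, 257 and 249 CPM at Day 28, against 74.1, 80.0 and 75.2 CPM in 2D (1.79 ± 0.10). Among called members that averaged 10 CPM or more over the libraries compared, MRPL4 (1.35 ± 0.07), MRPL52 (1.21 ± 0.09) and MRPL17 (1.16 ± 0.09) were the next of the large subunit. Members under that level with larger rises included MRPL11 (1.99 ± 0.45), MRPL20 (1.77 ± 0.25) and, in the small subunit, MRPS23 (1.71 ± 0.32). MRPS9 had 364.5, 372 and 359.5 CPM at Day 28, against 146, 143 and 145 CPM in 2D (1.34 ± 0.06), and its difference between Day 28 and Day 3 did not pass the test (0.05 ± 0.06). MRPS34 (1.11 ± 0.10), MRPS7 (1.03 ± 0.08) and MRPS26 (0.96 ± 0.08) came after it at the same level of 10 CPM or more.

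The largest fall of the large subunit at Day 28 against 2D was in MRPL42, a mitochondria-specific protein. It had 239, 229 and 240.5 CPM at Day 28, against 458, 418 and 412 CPM in 2D (log2 fold change -0.86 ± 0.06), though it had not been called at Day 3 (-0.08 ± 0.06). MRPL18 (-0.68 ± 0.06), MRPL32, which is matured by a protease of the inner membrane (-0.44 ± 0.08), and MRPL14 (-0.40 ± 0.07) were also lower. In the small subunit MRPS10 (-1.19 ± 0.06), MRPS5 (-0.35 ± 0.06) and MRPS2 (-0.58 ± 0.18) stayed lower. So did MRPS21 at a low level, with means of 2.95 CPM at Day 28 and 6.40 CPM in 2D (-1.13 ± 0.22). The call of MRPS2 was lost with library-size scaling (edgeR adjusted p = 0.104). MRPS6 was called as well (-1.62 ± 0.46), with all 3 Day 28 libraries under all 3 monolayer libraries.

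Members chosen for their roles filled in this picture. MRPL44, a ribonuclease-fold protein near the tunnel exit, was higher at Day 3 (0.50 ± 0.08) and not called at Day 28 against 2D (-0.06 ± 0.08). MRPL11, at the base of the stalk, had 86, 52 and 24 counts at Day 3 and 6, 12 and 13 in 2D, so its log2 fold change of 2.27 ± 0.44 rests on few counts. MRPL10 was called higher at Day 28 against 2D (0.56 ± 0.21), a call lost without 2D replicate 2 or 3 or Day 28 replicate 2 (edgeR adjusted p = 0.0544, 0.0523 and 0.104). Of the 3 relatives of bacterial protein S18, MRPS18B was higher at Day 3 (0.35 ± 0.07), MRPS18A was not called (0.19 ± 0.14), and MRPS18C was higher (0.46 ± 0.14) with a call lost without Day 3 replicate 3 (edgeR adjusted p = 0.0654). MRPS30 was lower at Day 3 (-0.25 ± 0.08), but not with library-size scaling (edgeR adjusted p = 0.736). MRPS36 was lower at Day 3 (-1.28 ± 0.42) with 18, 15 and 18 counts at Day 3 and 29, 48 and 44 in 2D.

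Within the 18 spheroid libraries, each member was set beside the median of the other members on the log2 scale. These correlations share libraries and scaling and are given as a description. Their median was 0.60, with 42 of 77 above 0.5 and 19 below 0. MRPS25, a mitochondria-specific small-subunit protein, had the highest over all 21 libraries and an r of 0.96 in the spheroids. The 5 members least like the rest over the 21 libraries were MRPS21, MRPS10, MRPS2, MRPS5 and MRPL54. All 5 were lower at Day 3 than in 2D, a contrast that the r over 21 libraries contains, so this is not separate evidence. Within spheroids, MRPS21 (r = -0.49), MRPS2 (-0.37) and MRPS5 (-0.31) still ran against the others, while MRPL54 was near 0 (-0.02) and MRPS10 ran with them (0.41).

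Subunits without an MRP symbol were mixed at Day 3. PTCD3 (log2 fold change 1.12 ± 0.08), AURKAIP1 (0.46 ± 0.08), CHCHD1 (0.33 ± 0.08) and GADD45GIP1 (0.25 ± 0.09) were higher, while DAP3, a GTP-binding protein of the small subunit, was lower (-0.28 ± 0.06). OXA1L, the inner-membrane insertase that docks the ribosome and was counted with them, was at the edge of the calls (-0.31 ± 0.14, edgeR adjusted p = 0.0499). CHCHD1 had 1160 CPM at Day 3 and 920 CPM in 2D on average, then fell to 529 CPM at Day 28 (-1.13 ± 0.08 against Day 3). Factors that assemble the ribosome or modify its RNA were higher in 15 of 35 and lower in 9, with a median of 0.40, close to the background of 40.1% called higher. RCC1L, a guanine nucleotide exchange factor (1.42 ± 0.08), MALSU1, which keeps the immature large subunit from joining (1.30 ± 0.08), the GTPase MTG1 (1.17 ± 0.07) and ERAL1, a chaperone of the small-subunit RNA (0.88 ± 0.07), rose, while the GTPase NOA1 fell (-0.59 ± 0.07). At Day 28 against Day 3, 9 of these 35 were lower and 2 higher, where 30.2% of all genes were called lower and 29.5% higher.

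Factors that drive mitochondrial translation were higher in 11 of 16 and lower in 1 at Day 3, with a median of 0.72. In this comparison 40.1% of all genes were called higher and 37.8% lower, which is the background for the lists that follow too. MTRES1, which frees stalled ribosomes, had a log2 fold change of 2.71 ± 0.13, COA3, which controls synthesis of a cytochrome oxidase subunit, of 2.44 ± 0.07, and TACO1, its translational activator, of 2.11 ± 0.16. MTFMT, which formylates the initiator tRNA, had 1.72 ± 0.10, and MTRF1L, a release factor, was the lower one (-0.30 ± 0.07). Genes that copy and process mitochondrial DNA and RNA were higher in 12 of 24 and lower in 6. SLIRP (2.46 ± 0.20) and the packaging and transcription factor TFAM (0.64 ± 0.08) rose. POLRMT, the mitochondrial RNA polymerase (-0.82 ± 0.10), LRPPRC, the partner of SLIRP in keeping messenger RNA stable (-0.20 ± 0.06), and FASTKD5, which processes RNA (-1.55 ± 0.07), fell. Regulators of mitochondrial genes were lower in 7 of 9 and higher in 1, with a median of -0.87. MYC (-2.06 ± 0.07), NRF1 (-1.05 ± 0.10) and GABPB1 (-0.87 ± 0.07) were lower, and the coactivator PPARGC1A was higher (0.57 ± 0.10 at Day 3 and 2.12 ± 0.10 at Day 28, both against 2D).

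Cytosolic ribosomal proteins ran differently from the mitochondrial ones. At Day 3 against 2D, 5 of 76 were higher and 62 lower with a median log2 fold change of -0.90. At Day 28 against Day 3, 66 were higher and 1 lower with a median of 0.82, where 10 mitochondrial ones were higher and 39 lower. At Day 28 against 2D, 12 were higher and 15 lower with a median of -0.03, which became 36 and 5 and 0.19 with library-size scaling. Nuclear-encoded OXPHOS subunits were higher in 48 of 80 and lower in 10 at Day 3 against 2D, with a median of 0.47. They were lower in 49 and higher in 5 at Day 28 against Day 3, with a median of -0.39, and higher in 31 and lower in 27 at Day 28 against 2D. Over all genes tested, 40.1% were called higher and 37.8% lower at Day 3 against 2D. The shares were 29.5% and 30.2% at Day 28 against Day 3, and 38.5% and 34.8% at Day 28 against 2D. The OXPHOS counts at Day 28 against 2D were near these last shares. No test set these lists against each other.

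From 2D to Day 14, the summed proliferation markers changed in the same direction at each step as the members' share of counts. From Day 14 to Day 21 the means parted. The markers went from 364 to 402 CPM, with overlapping libraries, and the members' share from 0.927% to 0.871%. The 8 markers, MKI67 and CDK1 among them, summed to 84.6 to 96.7 CPM in 2D, 1258 to 1297 CPM at Day 3, 1034 to 1146 CPM at Day 7, 1547 to 1669 CPM at Day 10, 262 to 439 CPM at Day 14, 350.1 to 496 CPM at Day 21 and 258 to 295 CPM at Day 28. All 8 were higher at Day 3 than in 2D, and all 8 were lower at Day 14 than at Day 10 and at Day 28 than at Day 3. Their part in the member values was not tested. At Day 28 against 2D, 7 of the 8 were higher, beside 45 of 77 members (background 38.5% higher).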

How the data were processed

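The authors deposited raw counts per gene symbol and library, per the file headers, with no scaling. Cells, culture and RNA extraction with an RNeasy kit are per the labels, which put 100 ng of total RNA into each TempO-Seq library. STAR 2.7.10b, fastp 0.23.2, DESeq2 1.38.0, bcl2fastq 2.20.422 and GRCh38.p13 appear in the submitters' processing notes, with no role or order. The sources used here do not say how several oligos of 1 gene were combined. Table columns were matched to samples by their titles, and 0 columns belonged to other samples.

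Genes were kept by filterByExpr with a minimum count of 10, which removed 7338 symbols with 0.0108% of the counts. edgeR 4.0.16 in R 4.3.3 fitted 1 model over all 7 groups with TMM scaling (factors 0.884 to 1.07), robust quasi-likelihood tests (glmQLFTest) and Benjamini-Hochberg adjustment over 12345 genes, called at an adjusted p of 0.05. SE values come from the same fit. The common biological coefficient of variation was 9.62%. Replicates of a group differed beyond counting error, with chi-square values between pairs, divided by their degrees of freedom, of 5.68 to 29.7. The labels call them biological but do not say whether they were separate cultures, and the p-values reflect only how far these libraries spread, which may be technical. Log2 CPM for correlations had a prior count of 2. Scripts were tested on simulated data.

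Members and all gene lists were chosen with earlier results of these data known. Genes named in each comparison were, in each subunit, the 4 largest rises and 4 largest falls among called members with a mean of at least 10 CPM over the libraries compared and no overlap between the groups, so that separation of the groups was part of the choice. Members with a set role, the 5 least like the rest, the highest and lowest levels and the 4 with the widest range over spheroid days were added. Members named outside this rule were chosen after their values were seen. Alternatives were RLE and library-size scaling, no filter, a replicate block, DESeq2 1.42.0, fits on the 2 groups compared, leaving out each library, and other member sets. Gene positions are from GENCODE 29, and promoters, matched for 69 members, from RefSeq.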

Additional observations from a re-analysis of the deposited data

How the results depend on the processing

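Counts of members called stayed within 1.5 times under RLE scaling, no filter, DESeq2, fits on the 2 groups compared and members of at least 10 CPM (59 of 77), where each gave a value. Library-size scaling moved the median log2 fold change of all genes at Day 3 against 2D to 0.27, against 0.06 with TMM, and at Day 28 against 2D to 0.30, against 0.08. Members called lower were then 7 at Day 3 and 9 at Day 28 against 2D, MRPL18 at Day 3 stood at 0.048, and MRPL44 (0.15), MRPS12 (0.088), MRPS18A (0.18) and MRPS30 (0.081), not called at Day 28 against 2D, turned positive. Without a filter MRPS18A was 0.0016 there. Leaving out 1 library gave 55 to 57 members higher and 13 to 14 lower at Day 3 against 2D, 42 to 47 and 11 to 16 at Day 28 against 2D, 9 to 12 and 32 to 36 at Day 28 against Day 3, 7 to 10 and 24 to 29 at Day 14 against Day 10, and 59 to 64 changed among spheroid days. Signs turned in uncalled members only: at Day 28 against 2D MRPS18A (-0.18 to 0.097) and MRPL44 (-0.14 to 0.022), at Day 28 against Day 3 MRPL11 (-0.55 to 0.023), and at Day 14 against Day 10 MRPS18C (-0.20 to 0.039), MRPL11 (-0.54 to 0.14), MRPS36 (-0.31 to 0.056) and MRPS18A (-0.053 to 0.097). The cause was not tested.

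The difference between the subunit medians, large minus small, was 0.33 at Day 3 against 2D, 0.33 at Day 28 against 2D, -0.17 at Day 28 against Day 3 and -0.10 at Day 14 against Day 10. Leaving out 1 library gave 0.30 to 0.38, 0.26 to 0.41, -0.25 to -0.14 and -0.15 to -0.063 in the same order. Placing genes by structure gave 0.24, 0.13 and -0.10 for the first 3, and members of at least 10 CPM gave 0.27, 0.11 and -0.26. Members with no named copy or overlap, a choice made after seeing the data, gave -0.19 and -0.23 at Day 3 and Day 28 against 2D. The log2 ratio of the summed CPM was 0.53, 0.39, -0.14 and -0.06 in that order, and 0.51 to 0.54, 0.37 to 0.41, -0.16 to -0.12 and -0.078 to -0.041 with 1 library left out. It was 0.50, 0.54, 0.035 and 0.086 with subunits that have no MRP symbol, and 0.14, -0.036, -0.18 and -0.089 without MRPL4 and MRPS5, a choice also made after seeing the data.

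Libraries with the same replicate number were at most weakly alike. The 63 same-numbered pairs correlated between -0.060 and 0.099 in their deviations from group means, with 0 of them over 0.1. Still, 16 of 21 libraries correlated best with their own number, and the source of this was not tested. With the replicate block, 57 members were higher and 15 lower at Day 3 against 2D, 45 and 14 at Day 28 against 2D, 11 and 39 at Day 28 against Day 3, 10 and 28 at Day 14 against Day 10, and 63 changed among spheroid days. Depth limits MRPL34, MRPS24, MRPL11 and MRPS36, whose libraries hold few counts.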
